A study of Mus musculus with 4 samples.

Results

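Macrophages that carry the receptors Folr2, Cd163 or Lyve1 were described in dystrophic mouse muscle. A cell counted as a member if it held at least 10 unique molecules (UMIs) of the C1q genes C1qa, C1qb and C1qc together and at least 2 UMIs of Folr2, Cd163 and Lyve1 together. Members were thus chosen by measured values, and a cell could hold at most 1 UMI of the cycling genes Mki67 and Top2a together, and none of Pdgfra, a fibroblast gene, or Cdh5, an endothelial gene. In all, 1350 of 31077 cells that passed quality filters were members (4.34%). They made up 38.8% of the 3475 C1q-high cells, which meet the same conditions without the one on receptors. The remaining 2125 C1q-high cells are the comparison set and are called the other C1q-high cells.

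Mononuclear cells were taken from quadriceps and diaphragm of mice aged 14 weeks, with 1 single-cell library per group. The mdx5cv/Ccr2-/- mice carry the mdx5cv mutation of the dystrophin gene and a deletion of the chemokine receptor gene Ccr2. They were set against mdx5cv mice, with the dystrophin mutation alone, so every group used here was dystrophic. The sources used here do not give the number of animals per library, the extent of the Ccr2 deletion or the strain background. With 1 library per group, differences between genotypes or muscles have no replicate check and no p-value. Where 4 values are listed, the libraries are in the order mdx5cv/Ccr2-/- quadriceps, mdx5cv quadriceps, mdx5cv/Ccr2-/- diaphragm and mdx5cv diaphragm.

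A small set of surface proteins is commonly used to tell tissue macrophages that renew themselves in place from those that arrive from blood monocytes. The values here are RNA counts alone, so the origin of the members was not tested. Folr2 is the folate receptor beta, Cd163 takes up haemoglobin bound to haptoglobin, and Lyve1 binds hyaluronan and marks macrophages beside blood vessels. C1q, the starter of the classical complement cascade, is made by most tissue macrophages. Ccr2 is the receptor by which classical monocytes leave the bone marrow and enter injured muscle, where they become macrophages that clear dead fibres.

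The libraries held 56399477 to 92189580 UMIs over 5839 to 13175 deposited barcodes. Members numbered 332, 384, 235 and 399, with median depths of 11324, 16172, 9496 and 6429 UMIs per cell, and no member barcode occurred in more than 1 library. All 12 pan-macrophage markers stood at 20 CPM (a gene's UMIs per 1000000 UMIs summed over those cells) or more in members of every library. T cell, NK cell, dendritic cell and mast cell markers all stayed below 20 CPM, and each of their lists summed to at most 23.3 CPM. The lists of neutrophil, mural, erythroid and muscle markers each summed to at most 85.1 CPM. Among 6 B cell markers only Ighm reached 20 CPM (158, 153, 236 and 324 CPM), while Cd79a stayed at or below 1.54 CPM. Among 6 lymphatic endothelial markers Pdpn reached 20 CPM in 3 libraries and Ccl21a, at 24.3 CPM, in mdx5cv diaphragm. The 7 fibroblast markers, all above 0, summed to 448, 108, 785 and 807 CPM in members and 509, 288, 222 and 981 CPM in other C1q-high cells. They were thus lowest in the mdx5cv quadriceps in members. The part of free or fibroblast RNA in the results below was not tested.

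The targeted gene was nearly absent from members of the mdx5cv/Ccr2-/- libraries. Ccr2 stood at 4.37 CPM (18 UMIs) in mdx5cv/Ccr2-/- and 360 CPM (2331 UMIs) in mdx5cv quadriceps, and at 4.07 CPM (10 UMIs) in mdx5cv/Ccr2-/- and 228 CPM (656 UMIs) in mdx5cv diaphragm. The ratios were 0.0121 (95% interval 0.00718 to 0.0192) and 0.0178 (0.00852 to 0.033). Members of the mdx5cv libraries thus held less Ccr2 than other C1q-high cells there, which had 661 CPM in quadriceps and 606 CPM in diaphragm. In mdx5cv quadriceps, members with Cd163 or Lyve1 held 615 CPM and those with Folr2 alone 291 CPM. In mdx5cv diaphragm these values were 138 and 310 CPM. Other C1q-high cells of the mdx5cv/Ccr2-/- libraries kept 91.2 CPM (351 UMIs) in quadriceps and 85.3 CPM (132 UMIs) in diaphragm. The difference between members and other C1q-high cells over the 4 libraries did not pass the test (edgeR quasi-likelihood, Benjamini-Hochberg adjusted p = 0.243). Tags at the 3′ end can come from a transcript that lacks an internal stretch, and the UMIs left are no measure of intact receptor.

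In the quadriceps, members took a smaller part of the cells when Ccr2 was missing, while in the diaphragm the interval of the ratio held 1. They made up 4.87% (exact Clopper-Pearson 95% interval 4.38 to 5.41) of cells in mdx5cv/Ccr2-/- and 7.33% (6.64 to 8.07) in mdx5cv quadriceps (ratio 0.665, 0.572 to 0.772). Diaphragm members made up 3.65% (3.20 to 4.13) of cells in mdx5cv/Ccr2-/- and 3.17% (2.87 to 3.49) in mdx5cv mice, a ratio of 1.15 (0.974 to 1.35). The other C1q-high cells were a smaller share without Ccr2 in both muscles, with ratios of 0.515 (0.447 to 0.594) in quadriceps and 0.237 (0.198 to 0.283) in diaphragm. Members made up 50.4% (46.5 to 54.3) of C1q-high cells in mdx5cv/Ccr2-/- and 44.0% (40.7 to 47.4) in mdx5cv quadriceps. In the diaphragm they made up 62.3% (57.2 to 67.2) in mdx5cv/Ccr2-/- and 25.5% (23.3 to 27.7) in mdx5cv mice. The direction in the diaphragm rests on the number of receptor UMIs asked for. With at least 1 UMI the ratio of shares of all cells was 0.895, and with at least 5 it was 1.64 (1.33 to 2.02). Depth moved with genotype, since diaphragm members had a median of 9496 UMIs in mdx5cv/Ccr2-/- and 6429 UMIs in mdx5cv mice. In quadriceps it moved the other way, with 11324 UMIs in mdx5cv/Ccr2-/- and 16172 UMIs in mdx5cv mice. Cells were also thinned to 3000 UMIs before conditions of at least 3 C1q UMIs and 1 receptor UMI were applied. The ratio was then 0.961 in diaphragm and 0.731 (0.619 to 0.862) in quadriceps. These intervals hold counting error alone, without the spread between animals or dissections, and a share does not give an absolute number of cells.

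**Figure D1:**
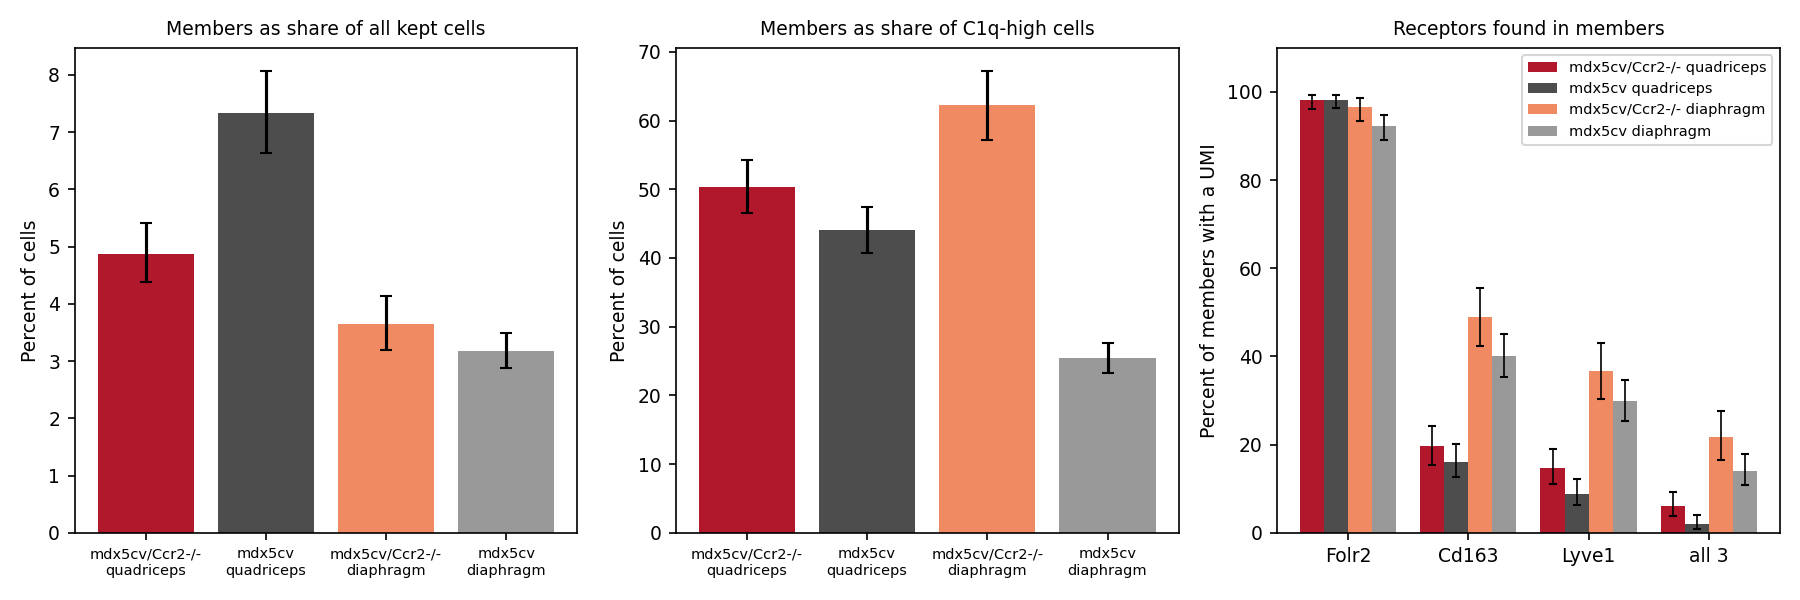
Share of members among all kept cells (left, percent) and among C1q-high cells (middle, percent), and share of members with a UMI of each receptor (right, percent), by library; bars are shares and error bars exact 95% binomial intervals. Members range between 3.17% and 7.33% of kept cells, and Cd163 and Lyve1 are found in larger shares of members of both diaphragm libraries than of both quadriceps libraries.

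The 3 receptors did not mark the same cells. Folr2 was found in 98.2%, 98.2%, 96.6% and 92.2% of members, so nearly all entered through Folr2. Cd163 was found in 19.6%, 16.1%, 48.9% and 40.1%, and Lyve1 in 14.8%, 8.85%, 36.6% and 29.8%. Both were thus more frequent in diaphragm than in quadriceps members of each genotype. Thinned to 3000 UMIs, Cd163 was found in 13.8%, 7.14%, 40.8% and 32.9% of members and Lyve1 in 10.4%, 6.08%, 23.2% and 21.8%. In cells with at least 2 Pdgfra UMIs, which should lack both, the thinned shares stayed at or below 0.511% for Cd163 and 1.02% for Lyve1. Those cells had median depths of 15023, 15045.5, 10616 and 7396 UMIs. All 3 receptors were found together in 6.02%, 2.08%, 21.7% and 14.0% of members, while 72.0%, 77.3%, 36.2% and 45.4% had Folr2 alone. The label, which names 3 receptors, thus describes a minority of the members of every library by detected UMIs. The levels followed the same pattern for Cd163 (87.8, 46.5, 427 and 261 CPM) and Lyve1 (82.5, 44.9, 220 and 170 CPM), while Folr2 varied less (566, 452, 580 and 550 CPM). These 3 genes chose the members, so their values are a description.

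Cells on either side of the condition on receptors were compared by levels summed over cells with the same number of receptor UMIs. Such sums cannot tell a gradient from a mix of distinct cells. H2-Aa, a chain of the MHC class II molecule that presents antigen to T cells, stood at 4146 CPM in mdx5cv diaphragm cells with 1 receptor UMI, just outside the condition, and at 3871 CPM in those with 2, just inside. It stood at 5982 CPM with 0 receptor UMIs and at 2598 CPM with 5 or more. In mdx5cv/Ccr2-/- quadriceps H2-Aa stood at 4699 CPM with 0, 2749 CPM with 1, 2280 CPM with 2 and 570 CPM with 5 or more receptor UMIs. Mrc1, the mannose receptor CD206, ran the other way in mdx5cv diaphragm, with 435 CPM at 0, 775 CPM at 1, 920 CPM at 2 and 2071 CPM at 5 or more. The steps were uneven in mdx5cv/Ccr2-/- diaphragm. H2-Aa stood there at 5919 CPM with 0, 2253 with 1, 2047 with 2, 2872 with 3 to 4 and 1117 with 5 or more. Mrc1 stood there at 512, 1023, 865, 1291 and 2023 CPM in the same order. Few cells lay at the C1q threshold, with 5, 10, 0 and 6 members at 10 to 12 C1q UMIs and 3, 6, 1 and 4 cells just below it.

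Members and other C1q-high cells of the same library were then compared over the 4 libraries, on genes that the choice of members had not read. Members had higher secreted and scavenger genes of resident macrophages and lower antigen presentation genes. Of 10376 genes tested, 628 were higher (6.05%) and 634 lower (6.11%) in members at an adjusted p of 0.05 (edgeR quasi-likelihood test with the library as a block, Benjamini-Hochberg). The cells were split by their own receptor UMIs, so genes that go with these receptors from cell to cell enter the test by construction, and it asks whether the difference recurs across libraries. Among the 628 higher genes 617 were higher in all 4 libraries, and among the 634 lower genes 560 were lower in all 4. With every cell thinned to 3000 UMIs the counts were 411 and 418, and without the mdx5cv diaphragm library 312 and 278.

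Of 25 listed receptors and secreted genes of resident macrophages 21 were tested, of which 16 were higher in members and none lower, with a median log2 difference of 1.65 against -0.01 over all tested genes. The list was written with earlier results of these data known and is no independent evidence. Ccl8, a chemokine that attracts monocytes and other leukocytes, had 1251, 858, 1219 and 1422 CPM in members and 90.9, 99.9, 229 and 167 CPM in other C1q-high cells. The sets did not overlap, and the log2 difference was 2.99 (SD of the library ratios 0.54, n = 4, edgeR adjusted p = 0.00514). Without the mdx5cv quadriceps library that p was 0.0722. Pf4, platelet factor 4, had 1949, 1993, 2841 and 2217 CPM in members and 538, 608, 884 and 642 CPM in the others (log2 difference 1.65, edgeR adjusted p = 5.42e-09). Mrc1 had 870, 872, 1776 and 1574 CPM in members and 297, 383, 592 and 484 CPM in the others (log2 difference 1.40, edgeR adjusted p = 6e-08). In each library the members were the higher set for both genes. Selenop, a selenium carrier, Stab1, a receptor for apoptotic cells, and Igf1, a growth factor for muscle fibres, were higher by 0.75, 1.43 and 0.87 on the log2 scale. Cbr2, a carbonyl reductase of resident macrophages, had 127, 203, 284 and 327 CPM in members and 9.87, 54.5, 11.0 and 39.7 CPM in the others, but did not pass the test (edgeR adjusted p = 0.0563).

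Some complement genes were higher in members. Of 18 complement genes beyond C1q, 17 were tested and 6 were higher, among them C2, C4b, C5ar1, Cd55 and Cfp, with none lower. C4b, the cleaved component that follows C1q in the cascade, had 89.0, 29.0, 199 and 126 CPM in members and 5.20, 6.36, 8.40 and 11.2 CPM in the others. Its log2 difference was 3.39 (edgeR adjusted p = 0.00775), which became 0.0552 without mdx5cv/Ccr2-/- quadriceps and 0.0825 without mdx5cv diaphragm. Reads of C4b can be shared with the near-identical gene C4a. Ltc4s, which makes leukotriene C4, was higher by 1.85 on the log2 scale, and Cd38, an enzyme that consumes NAD, by 1.98.

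The endothelin receptor gene Ednrb gave the largest log2 difference among the 12 higher genes named by rule, 4.29. It had 82.7, 89.5, 105 and 145 CPM in members and 1.82, 10.7, 1.29 and 4.06 CPM in the others (edgeR adjusted p = 0.0233). Leaving out any library other than mdx5cv quadriceps put that p between 0.0842 and 0.128. Cells with at least 2 Cdh5 UMIs held 145, 129, 111 and 101 CPM of Ednrb, close to the members' level, while the 8 blood endothelial markers summed to at most 34.0 CPM in members of mdx5cv diaphragm. Gas6, the bridge between dying cells and the receptors Mertk and Axl, had 388, 253, 559 and 453 CPM in members and 67.5, 95.1, 153 and 88.6 CPM in the others (log2 difference 1.93, edgeR adjusted p = 0.00127). Its receptor gene Axl went the other way, with 24.7, 55.6, 48.4 and 81.6 CPM in members and 107, 120, 144 and 154 CPM in the others (log2 difference -1.48, edgeR adjusted p = 0.00627). Among 18 efferocytosis genes, for the uptake of dying cells, 15 were tested, 5 were higher (Abca1, Cd36, Gas6, Pros1, Stab1) and 4 lower (Anxa1, Axl, Havcr2, Itgav).

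All 9 tested genes of the MHC class II list of 11 were lower in members, with a median log2 difference of -1.42. H2-Aa had 976, 1621, 1501 and 3084 CPM in members and 4177, 4010, 5344 and 5720 CPM in other C1q-high cells (log2 difference -1.64, edgeR adjusted p = 0.0235). Cd74, the invariant chain that escorts MHC class II to the endosome, had 2057, 3537, 3598 and 6074 CPM in members and 9216, 8134, 10988 and 11074 CPM in the others (log2 difference -1.57, edgeR adjusted p = 0.0381). The sets did not overlap for either gene, and members of mdx5cv/Ccr2-/- quadriceps were lowest for both. Without the mdx5cv quadriceps library the calls of H2-Aa, H2-Ab1, H2-Eb1 and Cd74 were lost, with edgeR adjusted p between 0.111 and 0.145. Without mdx5cv/Ccr2-/- diaphragm the calls of H2-Eb1 (0.0732) and Cd74 (0.0727) were lost. With members taken from 1 receptor UMI upwards the calls of H2-Aa (log2 difference -1.50, edgeR adjusted p = 0.0541) and H2-Eb1 (-1.66, 0.0617) were lost. Ciita, the master activator of these genes, was lower by 1.20 on the log2 scale and kept 45.6, 50.5, 29.3 and 78.2 CPM in members.

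Monocyte genes were lower in part. Of 17 genes of monocyte-derived cells 16 were tested and 7 were lower in members, Clec4e, Itgal, Ly6c2, Lyz2, S100a4, S100a6 and Thbs1, with none higher. Il1b, an inflammatory cytokine, had 7.03, 7.10, 28.9 and 82.3 CPM in members and 21.3, 38.0, 153 and 237 CPM in the others (log2 difference -2.06, edgeR adjusted p = 3.58e-05). Cx3cr1, the fractalkine receptor, had 119, 200, 224 and 307 CPM in members and 279, 335, 562 and 550 CPM in the others (log2 difference -1.14, edgeR adjusted p = 8.59e-06). Of 22 genes of lipid-associated macrophages, the phagocytes of dead tissue and lipid, only Fabp4 and Plin2 were lower. Spp1, osteopontin, had 1490, 1853, 218 and 561 CPM in members and 1080, 1179, 528 and 1061 CPM in the others, higher in members of both quadriceps and lower in those of both diaphragms (edgeR adjusted p = 0.763).

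**Figure D2:**
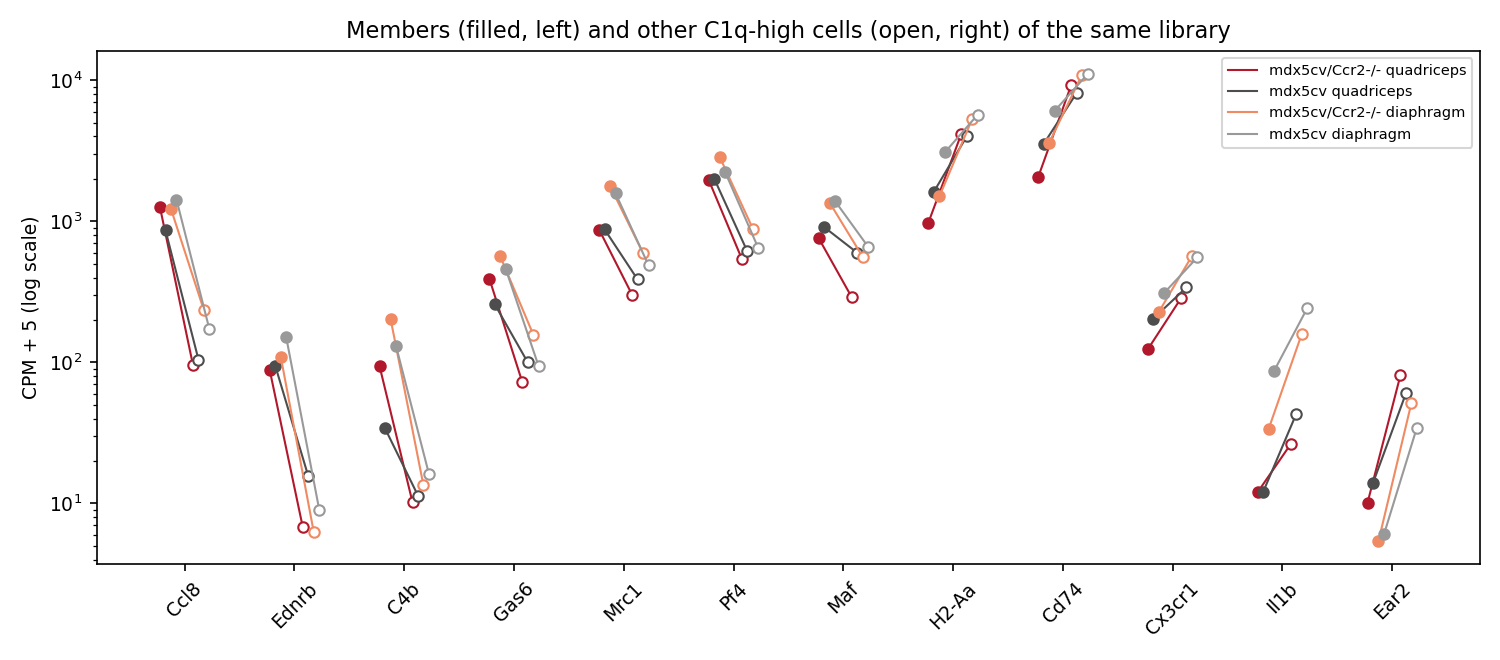
CPM + 5 (log scale) of 12 genes in members (filled points, left) and other C1q-high cells (open points, right), joined within each of the 4 libraries. All 4 lines fall to the right for Ccl8, Ednrb, C4b, Gas6, Mrc1, Pf4 and Maf, and rise for H2-Aa, Cd74, Cx3cr1, Il1b and Ear2.

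Promoter windows are shown for Folr2, which brought nearly all members in, for Ccl8, and for H2-Aa and H2-Eb1, which were lower together. Each covers the 250 bases upstream of a transcription start in RefSeq (build GRCm38.p6), 5′ to 3′ on the gene's strand. Capitals mark, in Folr2 and Ccl8, the MAF half-site TGCTGA and the PU.1-type core GAGGAA on either strand, and in H2-Aa and H2-Eb1 the CCAAT box on either strand. PU.1 and MAF are macrophage transcription factors, and NF-Y binds the CCAAT part of class II promoters. The Folr2 window shown held TGCTGA 1 time, Ccl8 held TGCTGA 2 times and GAGGAA 1 time, H2-Aa held CCAAT 1 time and H2-Eb1 2 times. A further Folr2 start, with the window chr7:101845332-101845581, also held TGCTGA 1 time and lacked GAGGAA. The window of Cd163, another receptor of the rule, held neither motif. These windows are not printed. Of 32851 promoter windows of this length 16.1% held TGCTGA, 23.3% held GAGGAA and 33.8% held CCAAT, so these matches are common and are given as a description.
Folr2 chr7:101857191-101857440 minus strand: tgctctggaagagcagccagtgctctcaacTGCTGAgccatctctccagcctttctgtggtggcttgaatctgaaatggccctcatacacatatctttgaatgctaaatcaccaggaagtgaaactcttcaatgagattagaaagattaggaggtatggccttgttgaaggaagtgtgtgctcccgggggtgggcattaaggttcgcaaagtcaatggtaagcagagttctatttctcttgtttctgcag
Ccl8 chr11:82114935-82115184 plus strand: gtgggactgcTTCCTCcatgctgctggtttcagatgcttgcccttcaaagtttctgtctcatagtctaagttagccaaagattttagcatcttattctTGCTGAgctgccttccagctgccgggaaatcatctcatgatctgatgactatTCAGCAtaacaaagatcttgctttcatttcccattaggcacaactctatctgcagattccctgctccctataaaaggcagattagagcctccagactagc
H2-Aa chr17:34287824-34288073 minus strand: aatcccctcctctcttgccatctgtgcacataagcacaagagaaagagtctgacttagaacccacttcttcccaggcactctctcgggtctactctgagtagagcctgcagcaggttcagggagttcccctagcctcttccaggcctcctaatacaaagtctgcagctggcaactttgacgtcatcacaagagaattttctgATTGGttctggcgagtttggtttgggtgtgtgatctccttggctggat
H2-Eb1 chr17:34305617-34305866 plus strand: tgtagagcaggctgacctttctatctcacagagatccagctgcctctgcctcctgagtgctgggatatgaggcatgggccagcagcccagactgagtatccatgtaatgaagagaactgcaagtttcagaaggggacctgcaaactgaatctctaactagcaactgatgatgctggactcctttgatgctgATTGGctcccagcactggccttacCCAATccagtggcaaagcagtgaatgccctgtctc

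Lyve1 divided the members further. Lyve1-positive members numbered 49, 34, 86 and 119, with median depths of 7713, 13424.5, 8918.5 and 5745 UMIs, and Lyve1-negative members 283, 350, 149 and 280, with 11885, 16269.5, 9658 and 6877.5 UMIs. Of 8130 genes tested, 530 were higher (6.52%) and 762 lower (9.37%) in Lyve1-positive members (edgeR quasi-likelihood test, library as a block). With cells thinned to 3000 UMIs the counts were 254 and 318. Of 23 tested resident genes 15 were higher and none lower, with a median log2 difference of 1.81. A gene that goes with Lyve1 from cell to cell enters this comparison by its construction too.

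Retnla, a secreted product of alternatively activated macrophages, had 522, 1912, 1075 and 884 CPM in Lyve1-positive and 4.07, 105, 78.7 and 66.9 CPM in Lyve1-negative members. The log2 difference was 4.20 (edgeR adjusted p = 0.0307), and leaving out mdx5cv quadriceps, mdx5cv/Ccr2-/- diaphragm or mdx5cv diaphragm gave an adjusted p between 0.115 and 0.143. Timd4, a receptor for phosphatidylserine on dying cells, had 37.0, 4.20, 89.2 and 70.0 CPM in Lyve1-positive and 0.813, 0.167, 9.08 and 9.02 CPM in Lyve1-negative members (log2 difference 3.41, edgeR adjusted p = 1.94e-07). Timd4 stayed near the floor in mdx5cv quadriceps. Fgfr1, a fibroblast growth factor receptor, had 148, 118, 131 and 139 CPM in Lyve1-positive and 19.8, 9.50, 17.0 and 26.1 CPM in Lyve1-negative members (log2 difference 2.81, edgeR adjusted p = 4.91e-10). Its level was even across the Lyve1-positive members of all 4 libraries. F13a1, the coagulation factor XIII A chain, had 2427, 1946, 2578 and 2317 CPM in Lyve1-positive and 314, 471, 768 and 898 CPM in Lyve1-negative members. Its log2 difference was 1.89 (edgeR adjusted p = 0.0376), and the adjusted p was 0.145 without mdx5cv quadriceps and 0.119 without mdx5cv/Ccr2-/- diaphragm.

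Chemokine genes were higher in Lyve1-positive members, with 7 of 14 tested higher (Ccl2, Ccl24, Ccl6, Ccl7, Ccl8, Ccl9, Pf4) and 2 lower (Ccl4, Cxcl16). Ccl24, which attracts eosinophils, had 294, 109, 151 and 344 CPM in Lyve1-positive and 48.0, 35.2, 36.3 and 66.9 CPM in Lyve1-negative members (log2 difference 2.07, edgeR adjusted p = 4.87e-09). Ccl6 had 1077, 1929, 901 and 1030 CPM in Lyve1-positive and 218, 716, 277 and 441 CPM in Lyve1-negative members (log2 difference 1.52, edgeR adjusted p = 0.000431). In both genes each library's Lyve1-positive members were higher. Among transcription factors Maf, Klf2, Klf4, Tcf4 and Zeb2 were higher, and 7 were lower, among them Pparg and Nr1h3, which respond to lipids, and Spi1, which encodes PU.1. Of 15 tested complement genes 6 were higher, among them C4b, C5ar1, Cd55, Cfb and Cfp, and 2 lower.

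The lipid-associated list was lower in Lyve1-positive members, with 16 of 22 lower, none higher and a median log2 difference of -1.27. Lgals3, galectin-3, had 1290, 1899, 326 and 669 CPM in Lyve1-positive and 4926, 4453, 1754 and 1792 CPM in Lyve1-negative members (log2 difference -1.87, edgeR adjusted p = 0.00783). Trem2, a lipid-sensing receptor, had 504, 565, 209 and 232 CPM in Lyve1-positive and 1082, 937, 627 and 630 CPM in Lyve1-negative members (log2 difference -1.34, edgeR adjusted p = 3.98e-08). Ctsd, a lysosomal protease, and Cd9, a tetraspanin, were lower by 1.44 and 1.57 on the log2 scale. Spp1 (374, 275, 12.4 and 424 against 1621, 1978, 319 and 612 CPM) and Gpnmb (102, 128, 4.96 and 226 against 1224, 1141, 232 and 364 CPM) were lower in each library but did not pass (edgeR adjusted p = 0.162 and 0.148). Iron storage genes fell as well, with Ftl1 lower by 1.10 and Fth1 by 0.88 on the log2 scale, while Hmox1, which breaks down haem, was higher by 0.83. Of 15 tested genes of iron and haem handling 3 were higher (Cp, Hmox1, Tfrc) and 5 lower (Fth1, Ftl1, Lrp1, Slc11a1, Slc40a1). Over all genes tested 6.52% were higher and 9.37% lower. Of 7 tested MHC class II genes 2 were lower, H2-DMa and H2-DMb1. H2-Aa had 314, 950, 1170 and 2652 CPM in Lyve1-positive and 1054, 1674, 1663 and 3242 CPM in Lyve1-negative members (edgeR adjusted p = 0.185).

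**Figure D3:**
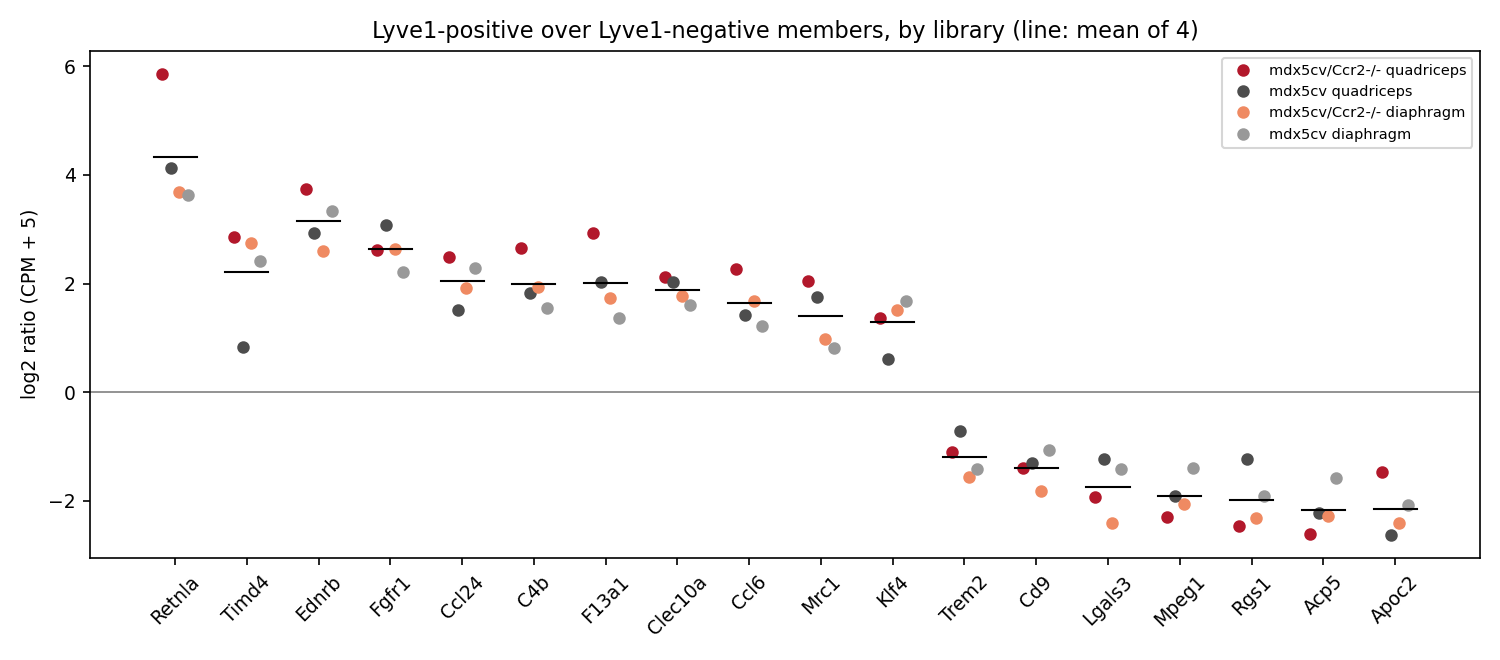
log2 ratio of CPM + 5 in Lyve1-positive over Lyve1-negative members for 18 genes, 1 point per library and a line at the mean of 4. The points of all 4 libraries lie above 0 for the 11 genes at the left and below 0 for the 7 at the right.

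A wider split, members with Cd163 or Lyve1 (93, 87, 150 and 218 cells) against members with Folr2 alone (239, 297, 85 and 181), was added after the data were seen. It found 642 of 8456 genes higher (7.59%) and 927 lower (11%) in those with Cd163 or Lyve1 (edgeR quasi-likelihood test). Of the 530 and 762 genes called in the Lyve1 split, 388 and 638 were called here in the same direction. The lipid-associated list had 18 of 22 genes lower, now with Spp1 (404, 789, 55.5 and 273 CPM in those with Cd163 or Lyve1, 1767, 2141, 449 and 825 CPM in those with Folr2 alone, log2 difference -2.10, adjusted p = 0.0299). Of 7 tested MHC class II genes 6 were lower. Cd209f, a lectin of the DC-SIGN family, had 150, 112, 29.8 and 57.4 CPM in members with Cd163 or Lyve1 and 0.609, 0, 0 and 3.99 CPM in members with Folr2 alone. Its reads may be shared with other Cd209 genes.

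Without Ccr2 the members held less MHC class II RNA in both muscles. All 7 measured genes of the list were lower in both, against 22.8% of the 5494 genes measured in members, with median log2 ratios of -0.73 in quadriceps and -1.002 in diaphragm against 0.06 and 0.02 over all measured genes. H2-Aa stood at 976 CPM in mdx5cv/Ccr2-/- and 1621 CPM in mdx5cv quadriceps (ratio 0.602, 0.581 to 0.625). Diaphragm members held 1501 CPM in mdx5cv/Ccr2-/- and 3084 CPM in mdx5cv mice, with a ratio of 0.487 (0.468 to 0.506). Ratios of CPM carry exact conditional 95% intervals that treat UMIs as independent and leave out the spread between cells. Ciita had a ratio of 0.903 (0.751 to 1.08) in quadriceps and 0.375 (0.283 to 0.491) in diaphragm.

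The difference was also found cell by cell. The 4 genes H2-Aa, H2-Ab1, H2-Eb1 and Cd74 together had a median of 1 UMI per member thinned to 3000 UMIs in mdx5cv/Ccr2-/- and 10 in mdx5cv quadriceps, and 6.5 in mdx5cv/Ccr2-/- and 28 in mdx5cv diaphragm. None of these UMIs was found in 42.1% of members in mdx5cv/Ccr2-/- and 21.2% in mdx5cv quadriceps, and in 26.8% in mdx5cv/Ccr2-/- and 10.8% in mdx5cv diaphragm. At least 50 were found in 10.4% of members in mdx5cv/Ccr2-/- and 18.8% in mdx5cv quadriceps, and in 19.7% in mdx5cv/Ccr2-/- and 37.3% in mdx5cv diaphragm. Members with Cd163 or Lyve1 had median log2 ratios of -0.98 in quadriceps and -1.10 in diaphragm. Members with Folr2 alone had medians of -0.70 and -0.86. In other C1q-high cells the medians of the same list were 0.08 in quadriceps and -0.09 in diaphragm, with none of the 7 genes lower in both muscles. The difference between members and other C1q-high cells in this respect was not tested. In cells with Pdgfra the 4 genes measured had medians of -0.53 and -1.77, so RNA of these genes outside macrophages was also lower, and its part in the members' values was not tested.

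**Figure D4:**
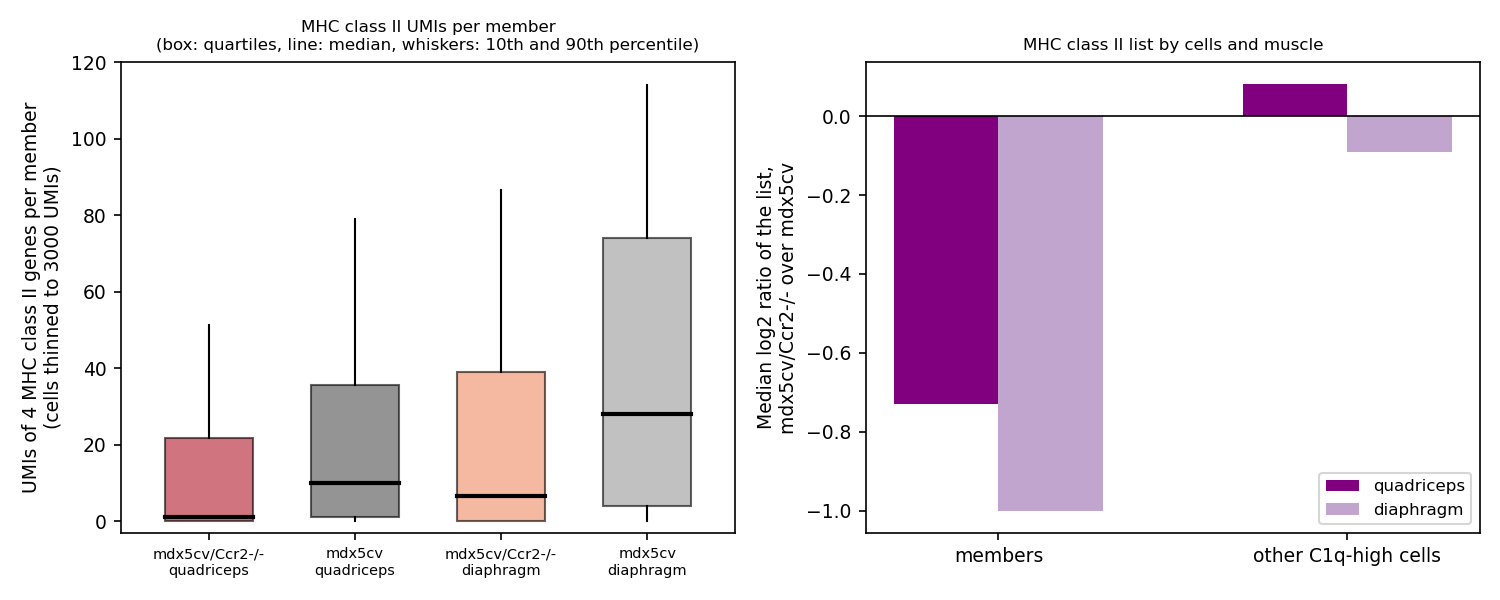
Left: UMIs of H2-Aa, H2-Ab1, H2-Eb1 and Cd74 per member thinned to 3000 UMIs, by library (box, quartiles; line, median; whiskers, 10th and 90th percentile). Right: median log2 ratio of the MHC class II list, mdx5cv/Ccr2-/- over mdx5cv, in members and in other C1q-high cells; the members' bars reach -0.73 and -1.002.

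Interferon response genes were lower in members without Ccr2 as well. In both muscles 15 of the 16 genes measured were lower, against 22.8% of all measured genes. The medians were -0.78 in quadriceps and -0.80 in diaphragm. Isg15, a ubiquitin-like protein induced by interferon, stood at 41.2 CPM in mdx5cv/Ccr2-/- and 118 CPM in mdx5cv quadriceps (ratio 0.350, 0.294 to 0.413), and at 31.7 CPM in mdx5cv/Ccr2-/- and 98.0 CPM in mdx5cv diaphragm (0.324, 0.249 to 0.418). Rsad2, the antiviral protein viperin, had ratios of 0.328 and 0.211. The exception was Ifi27l2a, at 2091 CPM in mdx5cv/Ccr2-/- and 1855 CPM in mdx5cv quadriceps and at 1940 CPM in mdx5cv/Ccr2-/- and 1898 CPM in mdx5cv diaphragm. The list was lower in other cells too, with medians of -1.32 and -0.81 in other C1q-high cells, -0.33 and -0.28 in cells with Pdgfra and -0.23 and -0.14 in cells with Cdh5.

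Genes for the uptake of dying cells leaned higher without Ccr2. Of 15 measured efferocytosis genes 13 were higher in both muscles, against 38.1% of all measured genes, but none by 2-fold in both, and the medians were 0.30 and 0.27. Pros1, protein S, stood at 120 CPM in mdx5cv/Ccr2-/- and 63.9 CPM in mdx5cv quadriceps and at 146 CPM in mdx5cv/Ccr2-/- and 92.7 CPM in mdx5cv diaphragm (ratios 1.88 and 1.57). Mertk had ratios of 1.22 and 1.31 and Gas6 of 1.54 and 1.23. Axl was lower, at 24.7 CPM in mdx5cv/Ccr2-/- and 55.6 CPM in mdx5cv quadriceps and at 48.4 CPM in mdx5cv/Ccr2-/- and 81.6 CPM in mdx5cv diaphragm. The efferocytosis list had medians of 0.02 in quadriceps and 0.38 in diaphragm in other C1q-high cells. These medians were 0.13 and 0.13 in cells with Pdgfra and -0.04 and 0.02 in cells with Cdh5. Of 16 cytokine and growth factor genes measured in members 6 were higher and 6 lower in both muscles, with medians of 0.0040 and -0.034. Those higher were Il1rn (ratios 1.23 and 1.65), Tgfb1 (1.01 and 1.11), Igf1 (ratios 1.82 and 1.29), Pdgfa (1.51 and 1.51), Pdgfb (2.11 and 1.74) and Pdgfc (1.82 and 1.70). Those lower were Il10 (0.646 and 0.590), Il18 (0.726 and 0.878), Osm (0.738 and 0.663), Gdf15 (0.850 and 0.702), Grn (0.991 and 0.907) and Il1b (0.991 and 0.351). In quadriceps the ratios of Tgfb1, Grn and Il1b lay close to 1. Over all measured genes 38.1% were higher and 22.8% lower in both muscles. The 6 of 16 higher genes are close to the first share, and the genes of this list are given as a description. The resident list as a whole had medians of 0.01 and -0.01. Pdgfb and Pdgfc were also higher without Ccr2 in other C1q-high cells, with log2 ratios of 0.87 and 0.55 for Pdgfb and 0.60 and 0.78 for Pdgfc.

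Across all measured genes, 16 were at least 2-fold higher (0.291%) and 20 at least 2-fold lower (0.364%) without Ccr2 in both muscles. Counted in each muscle separately, 71 were higher (1.29%) and 33 lower (0.601%) by that size in quadriceps, and 20 were higher (0.364%) and 49 lower (0.892%) in diaphragm. Colec12, a scavenger receptor of the collectin family, stood at 74.5 CPM in mdx5cv/Ccr2-/- and 11.1 CPM in mdx5cv quadriceps (ratio 6.70, 5.17 to 8.79), and at 164 CPM in mdx5cv/Ccr2-/- and 72.9 CPM in mdx5cv diaphragm (2.25, 1.90 to 2.67). Other C1q-high cells held 7.01, 3.95, 20.04 and 6.42 CPM of it, also higher without Ccr2, with log2 ratios of 0.42 in quadriceps and 1.13 in diaphragm against 2.30 and 1.12 in members. Cells with Pdgfra held 248, 222, 233 and 219 CPM. Hpgd, which inactivates prostaglandins, had ratios of 2.70 and 1.79, short of 2-fold in diaphragm. Among the lower genes were Cyp4f18, a fatty acid hydroxylase (ratios 0.298 and 0.256), and Apoc2, an activator of lipoprotein lipase (0.331 and 0.351). Ly6e, with ratios of 0.472 and 0.544, was short of 2-fold in diaphragm. Plac8, a monocyte gene, stood at 2.43 CPM in mdx5cv/Ccr2-/- and 69.3 CPM in mdx5cv quadriceps, and at 2.03 CPM in mdx5cv/Ccr2-/- and 55.9 CPM in mdx5cv diaphragm. Other C1q-high cells went the same way for Hpgd, with log2 ratios of 0.52 in quadriceps and 0.97 in diaphragm. The same held there for Cyp4f18 (-0.91 and -1.02), Apoc2 (-1.46 and -1.84) and Ly6e (-1.79 and -1.19).

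Ifi202b, a DNA-binding gene of the interferon-inducible p200 family, stood apart between genotypes in each cell set examined. It stood at 125 CPM in mdx5cv/Ccr2-/- and 0 CPM in mdx5cv quadriceps members, and at 159 CPM in mdx5cv/Ccr2-/- and 1.04 CPM in mdx5cv diaphragm members. In other C1q-high cells it stood at 95.3 and 131 CPM in mdx5cv/Ccr2-/- and at 0.172 and 0.225 CPM in mdx5cv mice, and in cells with Pdgfra at 178 and 182 CPM in mdx5cv/Ccr2-/- and at 0 and 0.0222 CPM in mdx5cv mice. Its relatives Ifi209 (ratios 0.162 and 0.271) and Mndal (0.443 and 0.414) were lower in members without Ccr2. Reads of these closely related family members can be assigned to each other, so their separate levels are uncertain. The genetic background of the 2 genotypes cannot be told apart from the loss of Ccr2 for such genes.

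**Figure D5:**
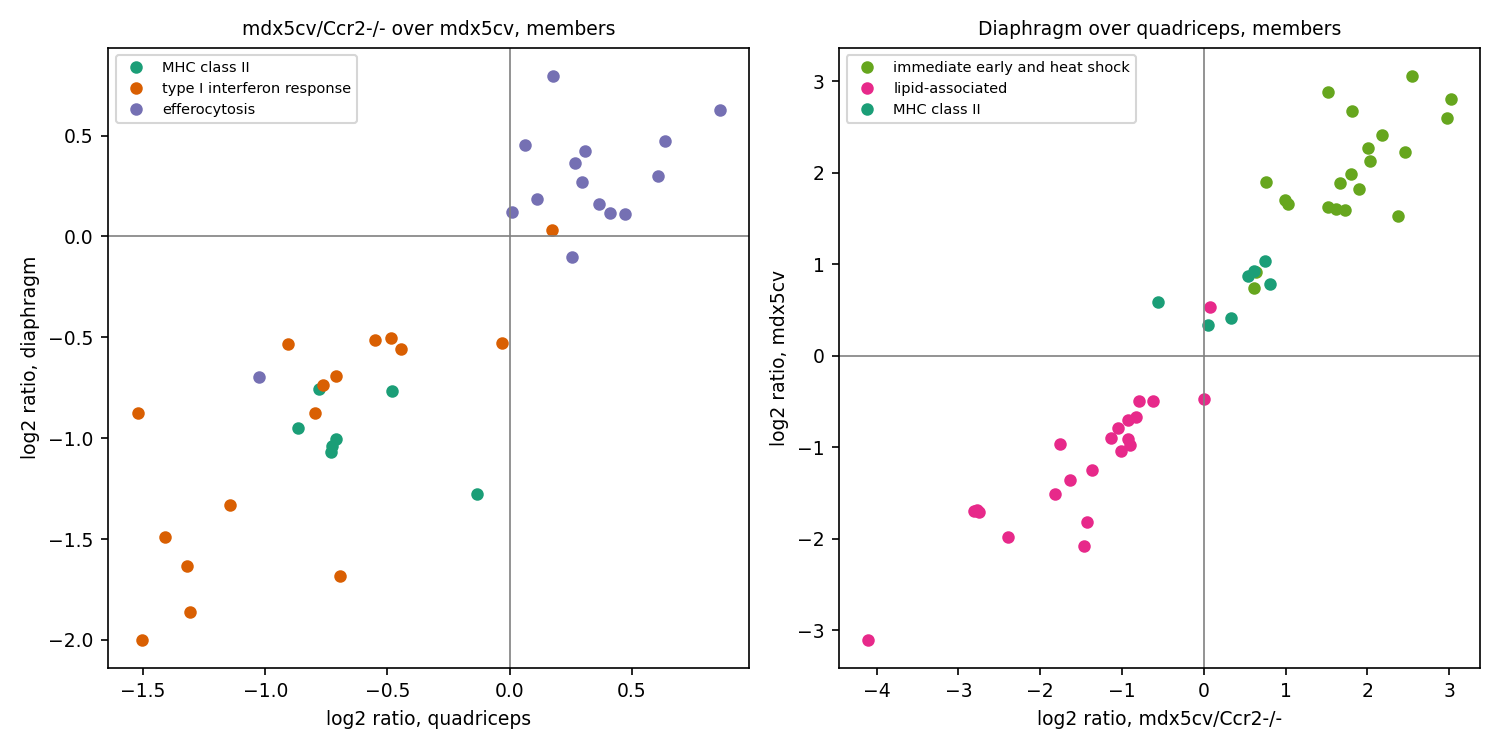
log2 ratio of CPM + 5 in members for genes of fixed lists. Left: mdx5cv/Ccr2-/- over mdx5cv in quadriceps (x axis) and diaphragm (y axis), with MHC class II genes (7) and all but 1 of the interferon genes (16) below 0 in both and most efferocytosis genes (15) above 0. Right: diaphragm over quadriceps in mdx5cv/Ccr2-/- (x axis) and mdx5cv (y axis) mice, with all 21 immediate early and heat shock genes above 0 and 21 of 22 lipid-associated genes below 0.

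The muscle of origin set the members apart by more genes than the genotype did at the same 2-fold size. In the diaphragm 96 genes were at least 2-fold higher (1.75%) and 35 at least 2-fold lower (0.637%) than in the quadriceps in both genotypes. By genotype, 123 (2.24%) were higher and 70 (1.27%) lower in mdx5cv/Ccr2-/- mice, and 200 (3.64%) were higher and 46 (0.837%) lower in mdx5cv mice. At any size 41.6% of genes were higher and 33.2% lower in both. Lipid-associated genes were lower in diaphragm members, with 21 of 22 lower in both genotypes and median log2 ratios of -1.25 in mdx5cv/Ccr2-/- and -1.01 in mdx5cv mice. Spp1 stood at 218 CPM in diaphragm and 1490 CPM in quadriceps of mdx5cv/Ccr2-/- mice (ratio 0.147), and at 561 CPM in diaphragm and 1853 CPM in quadriceps of mdx5cv mice (0.303). Gpnmb, a membrane glycoprotein of lipid-laden macrophages, had ratios of 0.143 and 0.307, Fabp5, a fatty acid carrier, 0.141 and 0.306, and Mmp12, the macrophage elastase, 0.0470 and 0.0995. Apoe was the exception, with ratios of 1.06 and 1.44. Other C1q-high cells had medians of -0.87 and -0.25 for this list.

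Resident genes were higher in diaphragm members, with 16 of 19 higher in both genotypes and medians of 0.49 in mdx5cv/Ccr2-/- and 0.61 in mdx5cv mice. Mgl2, a lectin for galactose-type sugars, stood at 236 CPM in diaphragm and 26.7 CPM in quadriceps of mdx5cv/Ccr2-/- mice, and at 243 CPM in diaphragm and 54.0 CPM in quadriceps of mdx5cv mice. F13a1 had ratios of 2.54 and 2.21 and Mrc1 of 2.04 and 1.80. Bmp2, a morphogen outside this list, had 6.24 and 3.92. Members with Cd163 or Lyve1 made up 28.0%, 22.7%, 63.8% and 54.6% of members. Mrc1 stood at 2103, 1999, 2179 and 2047 CPM in them and at 556, 566, 1205 and 1140 CPM in members with Folr2 alone. F13a1 stood at 1770, 1472, 1928 and 1810 CPM and at 222, 337, 559 and 791 CPM in these sets. The part of this mix in the ratios of all members was not tested. In other C1q-high cells 10 of 15 resident genes were higher in diaphragm in both genotypes (medians 0.60 and 0.07), and in cells with Cdh5 9 of 11 (0.28 and 0.57). MHC class II genes had medians of 0.54 and 0.78 in members, 0.25 and 0.44 in other C1q-high cells, 0.57 and 1.72 in cells with Pdgfra and 1.26 and 1.38 in cells with Cdh5. The mdx5cv diaphragm thus had the highest H2-Aa of the 4 groups of members and the mdx5cv/Ccr2-/- quadriceps the lowest.

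All 21 immediate early and heat shock genes were higher in diaphragm members of both genotypes, with medians of 1.80 and 1.90. Hspa1b, an inducible chaperone, stood at 2203 CPM in diaphragm and 268 CPM in quadriceps of mdx5cv/Ccr2-/- mice, and at 2720 CPM in diaphragm and 385 CPM in quadriceps of mdx5cv mice. Its reads may be shared with the near-identical Hspa1a. The same 21 genes were all higher in the diaphragm in other C1q-high cells (medians 1.13 and 1.16), in cells with Pdgfra (1.35 and 1.62) and in cells with Cdh5 (1.15 and 1.54). Between genotypes 15 of the 21 were lower in members of both muscles without Ccr2, against 22.8% of all genes measured in members. The medians were -0.17 in quadriceps and -0.38 in diaphragm. Other C1q-high cells also had 15 of the 21 lower in both muscles (medians -0.20 and -0.21). Cells with Pdgfra had 13 lower (-0.16 and -0.57) and cells with Cdh5 13 (-0.03 and -0.40). These genes are known to respond to tissue dissociation, and the handling of the muscles cannot be told apart from the muscle itself here.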

How the data were processed

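Single-cell RNA was counted in 4 libraries, 1 for each genotype and muscle. The authors deposited raw UMI counts per gene and barcode, which the file headers credit to Cell Ranger 6.1.2. The genome build was mm10, per the submitters' processing notes, and no annotation release is stated there. Members and gene lists were chosen with earlier results of these data known.

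Cells were kept from 500 UMIs and 300 genes upwards if mitochondrial genes took no more than 15% of UMIs. Doublets stayed in the main results, and those that Scrublet marked were removed in an alternative. Counts were summed per library and cell set, and scaled to CPM. Members and other C1q-high cells, and the Lyve1 classes, were compared with edgeR 4.0.16 (quasi-likelihood, TMM, R 4.3.3) with the library as a block, so 4 pairs entered. The genes of the selection rule were left out of these tests. The fit was checked on simulated counts. DESeq2 1.42.0 was an alternative. For genotype and muscle, with 1 library per group, log2 ratios of CPM + 5 are given without a test, for 5494 genes with a mean of at least 20 CPM and 50 UMIs, and 2-fold is the size counted.

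Shares carry exact binomial 95% intervals and ratios exact conditional ones, which cover counting error only. Thinned values use 3000 random UMIs per cell and leave out shallower cells, which kept 318, 378, 228 and 362 members. Genes named were the 12 largest changes per direction among called genes changed the same way in all 4 libraries, the 10 largest ratios per direction held in both muscles or genotypes, and the genes of the lists, of which some are not reported here. Alternatives covered size factors, filters, pseudocounts, receptor and C1q thresholds, doublets and each library left out. Python 3.11.15, scanpy 1.11.5 and scipy 1.17.1 were used.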

Additional observations from a re-analysis of the deposited data

Results flagged for a closer look

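Ccl24, an eosinophil chemokine, differed between genotypes in opposite directions in the 2 muscles. It stood at 73.7 CPM in mdx5cv/Ccr2-/- and 40.6 CPM in mdx5cv quadriceps members, a ratio of 1.82, and at 74.0 CPM in mdx5cv/Ccr2-/- and 141 CPM in mdx5cv diaphragm members, a ratio of 0.525. Pla2g2d, a secreted phospholipase, stood at 46.3 CPM in mdx5cv/Ccr2-/- and 11.7 CPM in mdx5cv quadriceps members, a ratio of 3.95, and at 32.1 CPM in mdx5cv/Ccr2-/- and 57.0 CPM in mdx5cv diaphragm members, a ratio of 0.564. With 1 library per group the difference between the muscles was not tested.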

How the results depend on the processing

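No paired analysis was possible because each genotype-and-muscle group holds 1 replicate number, so the numbers cannot pair the groups, while the library block paired the cell sets within each library. An additive fit of genotype and muscle over the 4 libraries could have been made and was not run. With thresholds on CPM the quadriceps ratio of members' shares was 0.777 of all cells and 1.39 of C1q-high cells. In the diaphragm the ratio of shares of all cells was 0.895 with at least 1 receptor UMI, 1.64 with at least 5 and 0.961 with thinned thresholds, and that of C1q-high cells was 1.91 and 3.50 with at least 1 and at least 5. The 628 genes higher in members became 362 with DESeq2, 72 without the library block, 411 with thinned cells and 312 to 684 with a library left out. The 634 lower genes became 406, 56, 418 and 278 to 765 in the same order. In the Lyve1 split the 530 higher genes became 272 with DESeq2, 86 without the block, 254 thinned and 328 to 430 with a library left out, and the 762 lower genes became 335, 105, 318 and 446 to 539. In none of the listed alternatives did a called gene pass in the opposite direction.

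Median log2 ratios between genotypes moved as follows. The resident list in quadriceps was 0.31 with no filter, -0.10 with TMM, 0.17 as a mean over cells, 0.40 in members with Cd163 or Lyve1 and -0.11 in those with Folr2 alone, and in diaphragm 0.21 with at least 1 receptor UMI and -0.15 with at least 5. The MHC class II list in quadriceps was -0.52 and -0.87 with at least 1 and 5 receptor UMIs, -0.67 thinned, -0.48 with no filter, -0.84 with TMM, -0.66 as a mean over cells and -0.98 in members with Cd163 or Lyve1. In diaphragm it was -1.12 and -1.21 with at least 1 and 5, -1.13 with CPM thresholds, -1.18 thinned, -0.76 with no filter, -0.86 as a mean over cells, -1.10 with Cd163 or Lyve1 and -0.86 with Folr2 alone. The lipid-associated list in quadriceps was 0.16 with at least 5, 0.17 with CPM thresholds, 0.13 thinned and 0.13 with Folr2 alone, and turned to -0.029 with TMM, -0.0037 as a mean over cells and -0.37 with Cd163 or Lyve1. In diaphragm it was -0.31 with at least 1, -0.047 with CPM thresholds and -0.022 with Cd163 or Lyve1, and turned to 0.24 with at least 5. The monocyte-derived list in diaphragm turned to 0.029 with at least 5 and 0.10 with Cd163 or Lyve1. The cause was not tested.

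The 16 genes 2-fold higher without Ccr2 in both muscles became 3 with a pseudocount of 20, 27 with no filter, 9 as a mean over cells and 8 with Cd163 or Lyve1, and the 20 lower became 13 with a pseudocount of 20 and 36 with no filter. The 96 higher in diaphragm became 59 with a pseudocount of 20, 148 with no filter and 57 with Folr2 alone. The 35 lower in diaphragm became 63 with at least 5 receptor UMIs, 23 with a pseudocount of 20 and 22 with Cd163 or Lyve1. Among recomputed values of the main shares, counts and list medians, 191 stayed close to the main value, 69 moved and 4 reversed. Among recomputed medians of the other gene lists, 273 stayed close, 25 moved and 2 reversed.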

Other observations

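Iron genes differed in members beyond the groups described above. Of 16 tested genes of iron and haem handling 5 were higher in members than in other C1q-high cells (Blvrb, Cp, Ncoa4, Slc40a1, Tfrc) and 2 lower (Fth1, Hp), by edgeR's quasi-likelihood test. The shares over all tested genes were 6.05% higher and 6.11% lower. Cp, the ferroxidase ceruloplasmin, had 36.9, 25.3, 59.0 and 71.2 CPM in members and 6.75, 5.16, 11.0 and 10.5 CPM in other C1q-high cells (log2 difference 2.42, edgeR adjusted p = 1.62e-08). Slc40a1, the iron exporter ferroportin, had 58.7, 11.0, 65.1 and 45.2 CPM in members and 10.9, 6.02, 24.6 and 18.9 CPM in the others (log2 difference 1.41, edgeR adjusted p = 0.00626). Members were the higher set in each library for both genes. Among members, Cp was higher and Slc40a1 lower in Lyve1-positive than in Lyve1-negative cells.

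Of 21 tested cytokine and growth factor genes 5 were higher in members (Bmp2, Grn, Igf1, Pdgfc, Vegfb) and 4 lower (Gdf15, Il1b, Osm, Pdgfb). Of 21 tested matrix genes 3 were higher (Adam15, Sdc4, Timp2) and 5 lower, among them Mmp14, Plaur, Tgfbi and Thbs1. Of 17 tested cell cycle genes other than the pair used for selection, 2 were higher (Mcm4, Stmn1) and 1 lower (Hmgb2). Over all genes tested 6.05% were higher and 6.11% lower, and the cell cycle counts are too small to set apart from these shares.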
